A study of Mus musculus with 2 samples.

Results

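The Serpina3 cluster of mouse chromosome 12 was described by the accessibility of its chromatin in sham and stroke brains. The 7 members are Serpina3n, Serpina3f, Serpina3g, Serpina3i, Serpina3m, Serpina3k and Serpina3c, out of 21774 protein-coding genes counted in the same nuclei. The cluster was chosen by the fragment levels of Serpina3n in astrocyte-gated stroke and sham nuclei of these same libraries. Its stroke to sham values are therefore a description, without a test.

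Single-nucleus ATAC sequencing was used, in which the transposase Tn5 cuts accessible DNA and each pair of cuts is read as 1 fragment. Levels are fragments that overlap a gene or the 2 kb upstream of it, divided by all fragments of the same nuclei and multiplied by 1000000 (CPM); they count DNA and not transcripts. The sham library came from whole brains and the stroke library from ipsilateral hemispheres, both without olfactory bulbs and cerebellum, of wild-type male C57BL/6J mice 8 to 12 weeks old. Stroke was middle cerebral artery occlusion by a filament followed by reperfusion, sham surgery placed the filament without sustained occlusion, and tissue was taken at 48 h. Each library pooled 4 brains and each condition had 1 library, so brains cannot be told apart within a condition, no test between conditions was possible, and all intervals below are exact 95% intervals for counting error only. Region sampled (whole brain or hemisphere) and condition cannot be told apart either.

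Serpins of this cluster are secreted or intracellular inhibitors of serine proteases, and the mouse carries many tandem copies where the human genome has SERPINA3, the gene of alpha-1-antichymotrypsin. Serpina3n encodes an inhibitor of granzyme B, cathepsin G and neutrophil elastase, and its transcript is a widely used sign of reactive astrocytes after injury and of acute phase signalling through the interleukin-6 family, STAT3 and NF-kB. Serpina3g encodes a protein of leukocytes that inhibits lysosomal cathepsins, and Serpina3k, Serpina3m and Serpina3c are best known from liver and plasma.

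Barcodes were kept where more than 20% of their fragments lay in peaks, which left 6817 of 6979 called sham barcodes and 5054 of 8740 called stroke barcodes, with medians of 10356 and 9898 fragments per nucleus. Of the kept barcodes, 42 sequences occurred in both libraries. Just under the 20% threshold, 179 stroke barcodes at 18 to 20% held Serpina3n at 13.1 CPM, and just above it 252 stroke barcodes at 20 to 22% held 10.5 CPM. In sham, 43 barcodes at 20 to 22% held 17.1 CPM (6.86 to 35.2) from 7 fragments, and 24 at 18 to 20% held 1 fragment. All barcodes at or below 20% held 3.70 CPM in stroke, where they were 3686, and 3.75 CPM in sham, where they were 162. The median share of fragments in peaks was 38.8% in kept sham nuclei and 33.2% in kept stroke nuclei. Over 50 windows of 20 kb across and around the cluster the median ratio of stroke to sham was 1.17 in all nuclei, a local level beside the ratios over all nuclei. The windows include those of the members, so this level is not independent of them. The median log2 ratio of all genes over all nuclei was -0.03.

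Nuclei were assigned to a class where fragments over its marker genes exceeded those expected from the nuclei outside it, in both libraries together, and 5441 sham and 3867 stroke nuclei stayed unassigned. The astrocyte gate took 317 sham and 355 stroke nuclei, the oligodendrocyte gate 85 and 118, the oligodendrocyte precursor gate 177 and 118, the myeloid gate 96 and 216, the GABAergic neuron gate 303 and 146, the glutamatergic neuron gate 195 and 86, and the endothelial gate 107 and 87. All 20 astrocyte markers and all 20 oligodendrocyte markers were detected in the gates of their name in both libraries. The gates were set on these markers, and all 20 of each were also detected in the other of these gates, so detection does not tell the gates apart. Among the 10 genes with the highest fold of each gate over all other nuclei, 6 of the oligodendrocyte gate were its own markers and 1, Gpr17, was listed for precursors, while the astrocyte gate held 1 of its own, Aqp4, and none of another class. Within 2 points of the score of 8 that was required lay 41 sham and 42 stroke nuclei inside the astrocyte gate, and 79 and 75 unassigned nuclei with an astrocyte score just below it. A second assignment used profiles learned from the gated nuclei and the likelihood of each nucleus over all protein-coding genes outside the serpin cluster. It gave the same class to 65.6% of sham and 85.1% of stroke nuclei of the astrocyte gate, to 55.3% and 80.5% of the oligodendrocyte gate, and to 24.0% and 83.3% of the myeloid gate. Doublets were not removed.

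The promoters of 5 members are shown first because they are related in sequence and their accessibility differed. The sequences are from RefSeq (GRCm38.p6), run from 250 bases before the transcript start to 50 bases after it, and are written in the direction of transcription. Capitals mark matches on either strand to a STAT motif, TTCNNNGAA, or to the NF-kB consensus, and no other motif.

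Serpina3n promoter (chr12:104406458-104406757, plus strand): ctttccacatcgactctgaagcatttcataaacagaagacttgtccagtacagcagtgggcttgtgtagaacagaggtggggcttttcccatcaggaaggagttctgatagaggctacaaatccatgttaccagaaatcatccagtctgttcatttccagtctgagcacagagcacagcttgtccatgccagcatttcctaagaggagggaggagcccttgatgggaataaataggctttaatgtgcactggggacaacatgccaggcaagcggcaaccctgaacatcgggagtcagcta

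Serpina3c promoter (chr12:104153823-104154122, minus strand): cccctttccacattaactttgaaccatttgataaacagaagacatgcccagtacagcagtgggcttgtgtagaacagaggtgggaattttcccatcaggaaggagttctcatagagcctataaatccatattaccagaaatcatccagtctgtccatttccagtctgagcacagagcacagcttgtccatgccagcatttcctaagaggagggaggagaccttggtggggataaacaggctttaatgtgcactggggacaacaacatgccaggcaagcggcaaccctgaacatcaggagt

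Serpina3i promoter (chr12:104262872-104263171, plus strand): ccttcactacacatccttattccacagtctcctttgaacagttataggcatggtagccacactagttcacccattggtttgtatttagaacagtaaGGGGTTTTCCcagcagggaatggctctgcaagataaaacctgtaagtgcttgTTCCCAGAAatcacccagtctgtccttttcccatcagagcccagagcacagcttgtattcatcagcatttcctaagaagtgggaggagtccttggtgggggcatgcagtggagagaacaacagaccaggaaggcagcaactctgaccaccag

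Serpina3f promoter (chr12:104214294-104214593, plus strand): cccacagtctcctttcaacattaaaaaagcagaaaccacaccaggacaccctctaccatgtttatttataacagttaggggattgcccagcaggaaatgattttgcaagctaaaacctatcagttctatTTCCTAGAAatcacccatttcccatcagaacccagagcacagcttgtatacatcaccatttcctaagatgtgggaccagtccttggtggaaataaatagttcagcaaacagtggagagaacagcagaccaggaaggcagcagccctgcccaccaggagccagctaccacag

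Serpina3g promoter (chr12:104235897-104236196, plus strand): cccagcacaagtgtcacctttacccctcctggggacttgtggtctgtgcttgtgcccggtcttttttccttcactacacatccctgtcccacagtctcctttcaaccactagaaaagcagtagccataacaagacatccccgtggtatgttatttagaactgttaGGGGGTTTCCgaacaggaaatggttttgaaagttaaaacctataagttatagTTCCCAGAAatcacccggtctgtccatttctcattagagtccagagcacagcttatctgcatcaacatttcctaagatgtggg

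The Serpina3n and Serpina3c promoters were identical at 275 of 294 aligned bases, or 93.5%. The other pairs were less alike, from 74.5% of 278 aligned bases for Serpina3n and Serpina3f to 86.4% of 264 for Serpina3i and Serpina3f. A STAT match stood in the promoters of Serpina3i, Serpina3f and Serpina3g, at TTCCCAGAA, TTCCTAGAA and TTCCCAGAA, and an NF-kB match in those of Serpina3i and Serpina3g, at GGGGTTTTCC and GGGGGTTTCC. Neither set of letters occurred in the Serpina3n and Serpina3c windows, which says nothing of the factors. Of 32817 RefSeq promoter windows of this length, 8.29% held the STAT motif and 8.46% the NF-kB consensus. A search for the AP-1 motif TGANTCA, present in 7.81% of the windows, found none in these 5 promoters, and neither did one for the CTCF core motif (2.43%). The C/EBP motif TTGCNNAA, present in 10.8% of the windows, had 2 matches, TTGCAAAA and TTGCTGAA, both on the opposite strand, in the Serpina3f promoter and none in the other 4; neither overlapped the STAT match. The promoters of 5 of the 7 members were matched, without Serpina3k and Serpina3m.

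Because the members are related in sequence, the share of 75-base words that occur once in the genome was counted for each gene with its 2 kb upstream. It was 96.5% for Serpina3n, 99.2% for Serpina3c, 96.6% for Serpina3i, 95.2% for Serpina3k, 94.8% for Serpina3f, 94.7% for Serpina3m and 94.5% for Serpina3g. Within 500 bases of the start every 75-base word of Serpina3n, Serpina3c, Serpina3f and Serpina3g was unique, so fragments of at least this length could be placed there. The lowest share near a start was 90.1%, at Serpina3k. Some fragments were shorter, with a median of 49.5 bases at the Serpina3n promoter in sham GABAergic neuron-gated nuclei. With 50-base words the lowest share over a gene was 87.0%, at Serpina3g, and near a start 81.9%, at Serpina3k. Read pairs of low mapping quality were 5.09% of all in sham and 9.25% in stroke, and their part was not tested.

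Serpina3n (chr12:104406646-104414334, plus strand) was the member with the most fragments in both libraries. Over all kept nuclei it had 409 fragments in sham, or 5.57 CPM (5.04 to 6.13), and 583 in stroke, or 11.04 CPM (10.2 to 11.98). The ratio of stroke to sham was 1.98, with an interval of 1.75 to 2.26. Of 20433 genes with at least 20 fragments over both libraries, 3.99% were at least 2-fold higher in stroke over all nuclei and 832 had a higher ratio than Serpina3n.

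In astrocyte-gated nuclei Serpina3n had 18 fragments in sham, or 4.44 CPM (2.63 to 7.02), and 91 in stroke, or 22.8 CPM (18.3 to 27.95). The libraries did not overlap in their intervals, and the ratio was 5.12 (3.07 to 9.03). The 91 fragments came from 68 nuclei with at most 3 each, so 19.2% of stroke astrocyte-gated nuclei held a fragment against 4.42% of sham. After thinning each nucleus to 5000 fragments, which dropped 34 shallower sham and 39 shallower stroke nuclei, the shares were 2.47% and 10.1%. Among 16916 genes counted in this gate, 19 had a higher ratio and 2.94% were at least 2-fold higher in stroke. The median share of fragments in peaks was 47.3% in sham and 48.4% in stroke astrocyte-gated nuclei. In other gates it was lower in stroke, as over all nuclei. It was 38.5% and 36.1% in oligodendrocyte-, 36.1% and 33.3% in oligodendrocyte precursor- and 38.5% and 30.1% in myeloid-gated nuclei. The part of this share in the ratios was not tested.

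Among classes of at least 50 stroke nuclei, the highest Serpina3n level without thinning lay in oligodendrocyte-gated nuclei. There 40 fragments gave 39.2 CPM (28.03 to 53.4), against 6 fragments and 6.0 CPM (2.20 to 13.1) in sham, a ratio of 6.54 (2.75 to 18.9). The fragments came from 28 of 118 stroke nuclei and 5 of 85 sham nuclei. Of 13952 genes counted in this gate 8 had a higher ratio, and 3.68% were at least 2-fold higher in stroke. Within the stroke library the oligodendrocyte level was 1.72 times the astrocyte level (1.16 to 2.53), whereas in sham the same ratio was 1.35 (0.44 to 3.55) and its interval held 1. With each nucleus thinned to 5000 fragments, a step that also dropped 43 of the 118 oligodendrocyte-gated stroke nuclei, the gap was smaller and the stroke levels were 24 CPM in the oligodendrocyte gate and 23.4 in the astrocyte gate. The thinned shares of stroke nuclei with a fragment were 10.7% (4.72 to 19.9) and 10.1% (7.03 to 13.99), against 1.52% and 2.47% in sham.

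By the second assignment, Serpina3n stood at 15.8 CPM in sham oligodendrocyte nuclei, from 14 fragments in 8 nuclei, and at 43.8 CPM in stroke, from 68 fragments in 48 nuclei. The ratio was then 2.77 (1.54 to 5.33), beside 3.54% of genes at least 2-fold higher, and 173 of 14467 genes had a higher ratio. The oligodendrocyte level was 2.86 times the astrocyte level in sham (1.36 to 5.81) and 1.80 times in stroke (1.32 to 2.43), and neither interval held 1. The astrocyte ratio was 4.40 (2.81 to 7.19), beside 2.47% of genes at least 2-fold higher. Sham and stroke oligodendrocyte-gated nuclei also differed in depth, with medians of 11271 and 6553 fragments.

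Oligodendrocyte precursor-gated nuclei came next, with 13 fragments in sham (5.96 CPM) and 20 in stroke (16.1 CPM) and a ratio of 2.70 (1.28 to 5.91), beside 2.82% of genes at least 2-fold higher. Under the second assignment that ratio was 1.63 (0.83 to 3.12) and its interval held 1. Their stroke level was not distinguishable from that of astrocyte-gated nuclei, which was 1.41 times as high (0.86 to 2.42). In myeloid-gated nuclei 5 and 26 fragments gave 3.96 and 7.43 CPM, a ratio of 1.88 (0.71 to 6.26). The interval of the myeloid ratio held 1, and the astrocyte level in stroke was 3.06 times the myeloid level (1.96 to 4.94).

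In the neuronal and endothelial gates the libraries did not differ beyond counting error. Glutamatergic neuron-gated nuclei had 15 fragments in sham (5.60 CPM) and 6 in stroke (5.02), GABAergic neuron-gated nuclei 26 (6.20) and 9 (5.11), and endothelial-gated nuclei 10 (8.02) and 4 (4.09). All 3 intervals of the ratio held 1, and the sham levels of these gates overlapped those of the glial gates. By the second assignment, which held 1796 sham and 731 stroke nuclei as glutamatergic neurons, the ratio there was 2.14 (1.56 to 2.94) from 88 and 78 fragments, or 3.83 and 8.21 CPM, beside 1.33% of genes at least 2-fold higher. In GABAergic nuclei of that assignment 51 and 24 fragments gave a ratio of 1.11 (0.65 to 1.83), so the side of 1 on which both neuronal ratios lay depended on the assignment. The 26 GABAergic sham fragments came from 14 nuclei with up to 8 in 1 nucleus, and the 15 glutamatergic ones from 8 nuclei with up to 7. Unassigned nuclei gave 5.66 CPM in sham and 9.98 in stroke. Mural and fibroblast-gated nuclei gave 1 fragment in each library, and ependymal and choroid plexus-gated nuclei 0 and 2.

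**Figure D1:**
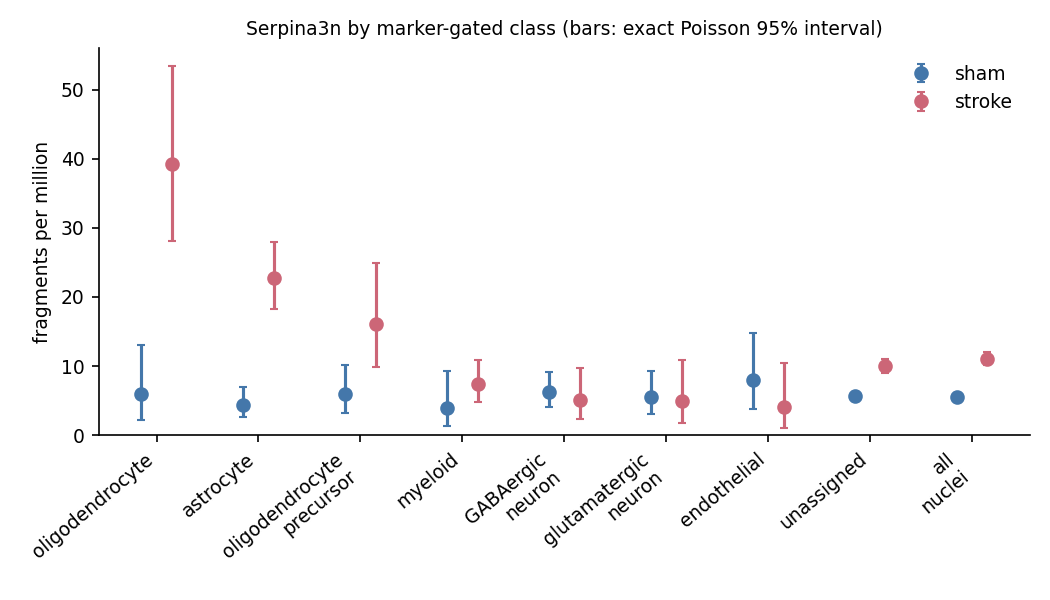
Serpina3n level in CPM (y axis, linear) in 7 marker-gated classes, in unassigned nuclei and in all kept nuclei (x axis), sham in blue and stroke in red, with exact Poisson 95% intervals. Stroke oligodendrocyte-gated nuclei stood at 39.2 and astrocyte-gated nuclei at 22.8, while the 7 sham classes lay between 3.96 and 8.02.

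Markers of other cells were summed in the same gates. The 25 myeloid markers, all detected in both libraries, summed to 522 CPM in sham and 596 in stroke astrocyte-gated nuclei, and the 8 macrophage genes to 54.8 and 61.5, with 2 of the 8 at 0 in sham. In oligodendrocyte-gated nuclei the myeloid markers summed to 626 and 816 and the macrophage genes to 52.0 and 114, with 2 macrophage genes at 0 in sham and 1 in stroke. The 20 astrocyte markers there summed to 747 and 827, and the oligodendrocyte markers themselves to 1773 and 2252. Mural and fibroblast markers there summed to 144 and 209, precursor markers to 514 and 621, and glutamatergic neuron markers to 426 and 355. In the astrocyte gate mural and fibroblast markers summed to 218 and 275, ependymal and choroid plexus markers to 87.9 and 114, and glutamatergic neuron markers to 413 and 295. The part of these other cells in the result was not tested.

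At the Serpina3n start the ratios were as high or higher than over the gene in these classes. Within 500 bases of the start, oligodendrocyte-gated nuclei had 2 fragments in sham and 23 in stroke, a ratio of 11.3 (2.79 to 98.7). Astrocyte-gated nuclei had 9 and 48, a ratio of 5.40 (2.62 to 12.5), and precursor-gated nuclei 5 and 13, a ratio of 4.57 (1.53 to 16.4). Over all nuclei the window had 150 and 288 fragments, or 2.04 and 5.46 CPM, a ratio of 2.67 (2.19 to 3.28). GABAergic neuron-gated nuclei had 10 and 7 fragments there, or 2.38 and 3.98 CPM, a ratio of 1.67 (0.54 to 4.85), and glutamatergic ones 3 and 2, or 1.12 and 1.67 CPM, a ratio of 1.5 (0.12 to 13.1). Fragments shorter than the DNA wrapped around 1 nucleosome made up 53.8% of the 145 fragments centred in the promoter in sham nuclei and 68.8% of 282 in stroke, against 70.4% and 69.8% genome-wide. The classes did not all share this direction. In astrocyte-gated nuclei the share was 75% of 8 fragments in sham and 68.8% of 48 in stroke, and in GABAergic neuron-gated nuclei 80% of 10 and 71.4% of 7. It was 0 of 2 fragments and 69.6% of 23 in oligodendrocyte-gated nuclei and 50% of 2 and 66.7% of 12 in myeloid ones. Glutamatergic neuron-gated nuclei gave 33.3% of 3 and 100% of 2. The sham counts are too small to compare.

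Beyond the 3′ end of the gene lay the 500-base bin with the most fragments of the locus. Its site was centred 9.09 kb after the start, and its near edge lay 1.32 kb after the gene end. It overlapped no annotated gene and is shown because it was accessible in neurons as well, where the promoter had few fragments. Capitals mark matches to the AP-1 motif TGANTCA.

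Site 9 kb after the Serpina3n start (chr12:104415650-104415949, plus strand of GRCm38): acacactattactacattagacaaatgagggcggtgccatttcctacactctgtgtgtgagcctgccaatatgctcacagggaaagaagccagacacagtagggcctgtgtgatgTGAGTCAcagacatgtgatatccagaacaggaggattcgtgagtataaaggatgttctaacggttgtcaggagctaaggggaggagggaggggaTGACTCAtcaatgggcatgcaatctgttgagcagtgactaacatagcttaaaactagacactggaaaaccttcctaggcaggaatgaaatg

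This site had 683 fragments in sham and 570 in stroke over all nuclei, a ratio of 1.16 (1.04 to 1.30), close to the median of the surrounding windows. In astrocyte-gated nuclei it had 18 and 47 fragments, a ratio of 2.65 (1.51 to 4.84), and in oligodendrocyte-gated nuclei 3 and 12, a ratio of 3.92 (1.06 to 21.7). Glutamatergic neuron-gated nuclei gave 10.8 CPM in sham and 16.7 in stroke, GABAergic ones 7.15 and 10.8, and myeloid ones 8.70 and 4.86, and the intervals of these 3 ratios held 1.

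**Figure D2:**
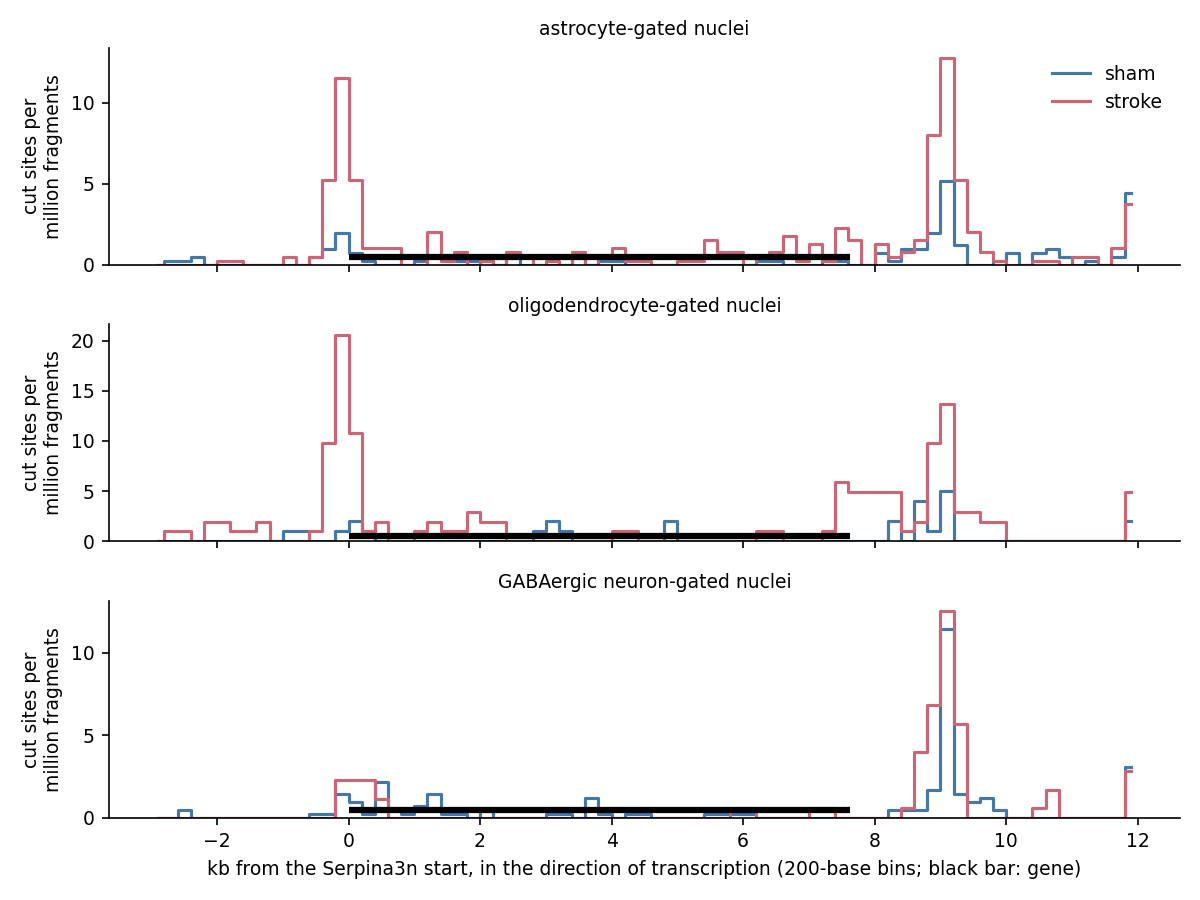
Tn5 cut sites in CPM (y axis) in 200-base bins against distance from the Serpina3n start in kb (x axis), for astrocyte-, oligodendrocyte- and GABAergic neuron-gated nuclei, sham in blue and stroke in red; the black bar is the gene. The promoter summit was high in stroke in both glial gates, while the site 9.09 kb downstream was accessible in all 3 gates.

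Farther downstream, 2 sites within introns of the long noncoding RNA gene Gm10000 differed between libraries in the astrocyte gate. The nearer, 84.5 kb after the Serpina3n start, was chosen for its difference and is printed with its STAT match, TTCCTGGAA, in capitals; it also held a C/EBP match, TTGCCCAA on the minus strand, which is not capitalised.

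Site 84 kb after the Serpina3n start (chr12:104491018-104491317, plus strand of GRCm38): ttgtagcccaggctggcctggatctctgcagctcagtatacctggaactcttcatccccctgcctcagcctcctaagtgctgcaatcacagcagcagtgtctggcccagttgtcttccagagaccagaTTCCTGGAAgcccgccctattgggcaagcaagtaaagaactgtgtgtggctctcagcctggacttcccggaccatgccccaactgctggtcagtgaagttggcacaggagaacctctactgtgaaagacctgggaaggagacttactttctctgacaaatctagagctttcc

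It had 2 fragments in sham and 20 in stroke in astrocyte-gated nuclei, or 0.49 and 5.0 CPM, a ratio of 10.1 (2.46 to 89.4). Over all nuclei it had 5 and 34. The second site, 85.4 kb after the start, had 10 and 31 fragments in astrocyte-gated nuclei, a ratio of 3.14 (1.5 to 7.18). That site, which is not printed, held no match to the STAT, NF-kB or AP-1 motif. In oligodendrocyte-gated stroke nuclei both sites had 0 fragments, with an exact upper limit of 3.62 CPM, and in GABAergic and glutamatergic neuron-gated nuclei neither site had a fragment in either library. Which gene these sites act on was not measured.

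Among 800 bins of 500 bases that span the cluster, 9 had at least 10 fragments in astrocyte-gated nuclei, and 7 of them were at least 2-fold higher in stroke and 0 lower. Genome-wide 18.9% of such bins were 2-fold higher and 11.6% lower. These bins include values that chose the locus and bins that reached 10 fragments through stroke alone, so the count is a description. The 7 were a pair at the Serpina3n promoter, the site 9 kb after its start, both Gm10000 sites, a bin between Serpina3g and Serpina3h at chr12:104245001-104245500 with 2 fragments in sham and 9 in stroke, and a bin after Serpina3k at chr12:104352001-104352500 with 2 and 8. Intervals of the last pair held 1. In oligodendrocyte-gated nuclei 2 bins had enough fragments, both at least 2-fold higher in stroke, beside 12.4% of bins higher and 13.4% lower genome-wide. With 1000-base bins, 10 of 12 were higher in astrocyte-gated nuclei, beside 17.4% genome-wide. In 20-kb windows the interval of the astrocyte ratio lay above 1 in 8 of 50 windows and below 1 in 3. The window that holds Serpina3n had 76 fragments in sham and 182 in stroke (2.43, 1.85 to 3.22), and the window before it, which holds Serpina3m, 29 and 16 (0.56, 0.28 to 1.06). A window farther upstream that holds the transcribed pseudogene Serpina3h, chr12:104240001-104260000, had 18 and 52 (2.93, 1.68 to 5.32). Its ratio was above that of the Serpina3n window, with overlapping intervals.

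**Figure D3:**
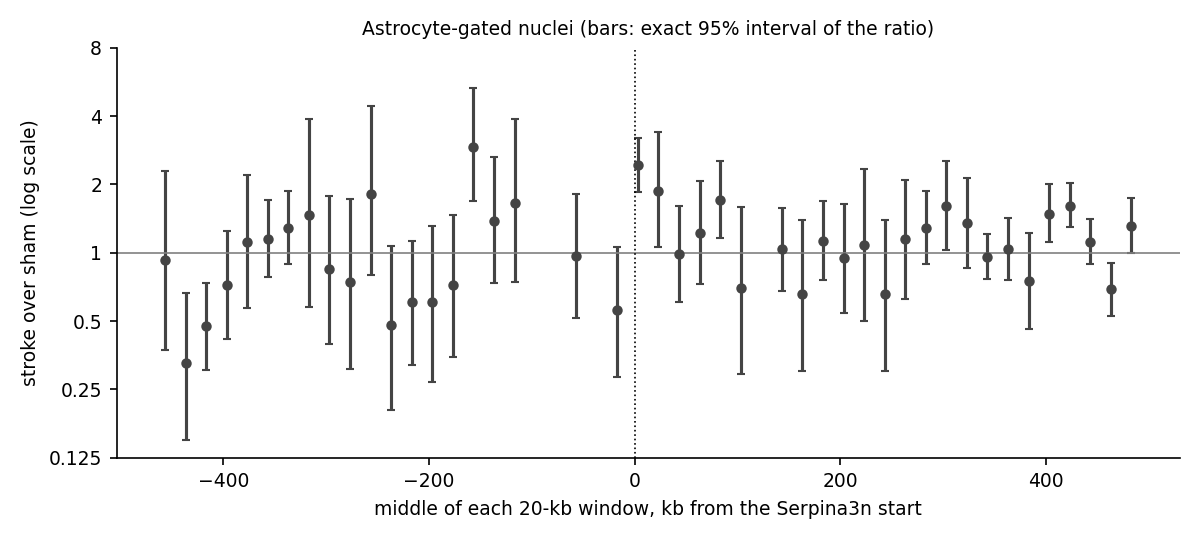
Ratio of stroke to sham in astrocyte-gated nuclei (y axis, log scale) in 20-kb windows with at least 20 fragments, by distance from the Serpina3n start in kb (x axis), with exact 95% intervals. The window of Serpina3n stood at 2.43, the one before it at 0.56 and the one of Serpina3h, 157 kb upstream, at 2.93. Most other intervals held 1.

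Among the other members, Serpina3i (chr12:104263045-104269509) was the one whose level differed most over all nuclei. It had 152 fragments in sham, or 2.07 CPM (1.75 to 2.42), and 220 in stroke, or 4.17 CPM (3.63 to 4.76), a ratio of 2.01 (1.63 to 2.49). At its start it had 33 and 99 fragments within 500 bases, a ratio of 4.18 (2.79 to 6.39). Over all nuclei the 17 other serpins of chromosome 12 had a median ratio of 1.33, from 0.84 for Serpina11 to 1.85 for Serpina1b, and 0 were 2-fold higher. Of all genes 3.99% were. Serpina3i fragments lay in several classes, with few in each gate. Astrocyte-gated nuclei had 9 and 16 fragments, a ratio of 1.80 (0.75 to 4.63), and unassigned nuclei 113 and 156, a ratio of 2.00 (1.56 to 2.57). Oligodendrocyte-gated nuclei had 0 and 8, at least 2.61-fold higher in stroke when sham is set to a floor of 3 fragments, and the exact lower limit of the ratio was 1.67. Myeloid-gated nuclei had 2 and 18, a ratio of 3.25 (0.78 to 28.9), where 8.86% of genes were at least 2-fold higher, but by the second assignment they had 1 and 23, a ratio of 1.65 (0.27 to 67.9) and under 2-fold. Ratios were 1.17 in precursor-, 1.28 in GABAergic neuron- and 1.28 in endothelial-gated nuclei, and 3.37 from 2 and 3 fragments in glutamatergic ones, and these intervals held 1. By the second assignment glutamatergic nuclei had 18 and 17, a ratio of 2.28 (1.11 to 4.69), beside 1.33% of genes at least 2-fold higher.

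Serpina3c, whose promoter is the closest copy of that of Serpina3n, had few fragments at its start. Within 500 bases of its start it had 16 fragments in sham and 13 in stroke over all nuclei, or 0.22 and 0.25 CPM, a ratio of 1.13 (0.50 to 2.51). Serpina3n had 150 and 288 in its own window. Over the whole gene Serpina3c had 103 and 104 fragments, or 1.40 and 1.97 CPM, a ratio of 1.41 (1.06 to 1.86), against the median of 1.17 for the 20-kb windows around. In astrocyte-gated nuclei it had 4 in each library.

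Serpina3f and Serpina3g had higher levels in GABAergic neuron-gated than in glutamatergic neuron- or astrocyte-gated sham nuclei. In sham, Serpina3f (chr12:104214544-104221129) had 43 fragments there, or 10.3 CPM (7.42 to 13.8), from 29 nuclei, which was 5.49 times the level of glutamatergic neuron-gated nuclei (2.18 to 17.8) and 2.44 times that of astrocyte-gated nuclei (1.36 to 4.57). Serpina3g (chr12:104236147-104241939) had 27 fragments, or 6.44 CPM (4.24 to 9.37), at 3.45 times the glutamatergic level (1.31 to 11.5) and 2.37 times the astrocyte level (1.14 to 5.30). Against myeloid-gated nuclei the GABAergic level of Serpina3f was 4.32 times as high in sham (1.38 to 21.8) and 1.19 times in stroke (0.46 to 2.91), and that of Serpina3g 2.03 times (0.71 to 8.001) and 1.10 times (0.46 to 2.52). In stroke the GABAergic nuclei had 9 and 10 fragments of these genes, with ratios to sham of 0.50 (0.21 to 1.04) and 0.88 (0.38 to 1.88). Serpina3f was thereby the 1 of 4 members counted in this gate that passed 2-fold, downward, as 2.4% of genes did. By the second assignment, over 854 sham and 410 stroke GABAergic nuclei, Serpina3f stood at 9.997 and 9.13 CPM and Serpina3g at 8.52 and 10.4, and both were over 7 times the glutamatergic level in each library.

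An accessible site of both genes lay upstream of the start. Between 543 and 943 bases upstream of Serpina3f, GABAergic neuron-gated nuclei had 20 fragments in sham and 5 in stroke, or 4.77 and 2.84 CPM, a ratio of 0.60 (0.17 to 1.64). Over all nuclei the window had 87 and 53, a ratio of 0.85 (0.59 to 1.21). Between 446 and 846 bases upstream of Serpina3g they had 15 and 7, or 3.58 and 3.98 CPM, a ratio of 1.11 (0.38 to 2.90), and all nuclei had 69 and 41, a ratio of 0.83 (0.55 to 1.23). Both windows were set after the profile was seen. Neither gene differed between the libraries over all nuclei, where the ratios were 0.99 (0.81 to 1.20) for Serpina3f and 1.19 (0.96 to 1.48) for Serpina3g.

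For Serpina3m and Serpina3k the interval of the ratio over all nuclei held 1. Serpina3m (chr12:104387157-104394259) had 191 and 134 fragments over all nuclei, or 2.60 and 2.54 CPM, a ratio of 0.98 (0.78 to 1.22), and in astrocyte-gated nuclei 17 and 8, a ratio of 0.48 (0.18 to 1.17). With nuclei of the second assignment the astrocyte counts were 7 and 11 and the ratio turned to 1.22 (0.43 to 3.70). GABAergic nuclei of that assignment had 42 and 7, a ratio of 0.39 (0.15 to 0.88), where 1.23% of genes were at least 2-fold lower. Its glutamatergic nuclei went the other way, with 47 and 32 and a ratio of 1.65 (1.02 to 2.63). Serpina3k (chr12:104338486-104345739) was the lowest member, with 72 and 52 fragments and 0.98 CPM in sham and 0.985 in stroke. In astrocyte-gated nuclei it had 13 fragments in sham and 1 in stroke, a ratio of 0.08 with an upper bound of 0.52, but the 13 came from 5 nuclei and 6 of them from 1 nucleus; by the second assignment the counts were 8 and 3 and the interval held 1. Of the 5 members with at least 20 fragments in the astrocyte gate's libraries, 1 was at least 2-fold higher in stroke, Serpina3n, and 1 at least 2-fold lower, Serpina3m, beside 2.94% and 2.1% of all genes counted. In the second assignment 3 members had enough fragments, 1 was at least 2-fold higher, Serpina3n, and 0 were lower, beside 2.47% and 1.15% of genes. At a fold of 1.5 Serpina3n and Serpina3i were higher, beside 8.6% of genes, and Serpina3f and Serpina3m were lower, beside 8.84%, while at a fold of 3 Serpina3n alone of the 5 was higher, beside 0.745%. Serpina3k and Serpina3c did not have enough fragments to enter that count.

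**Figure D4:**
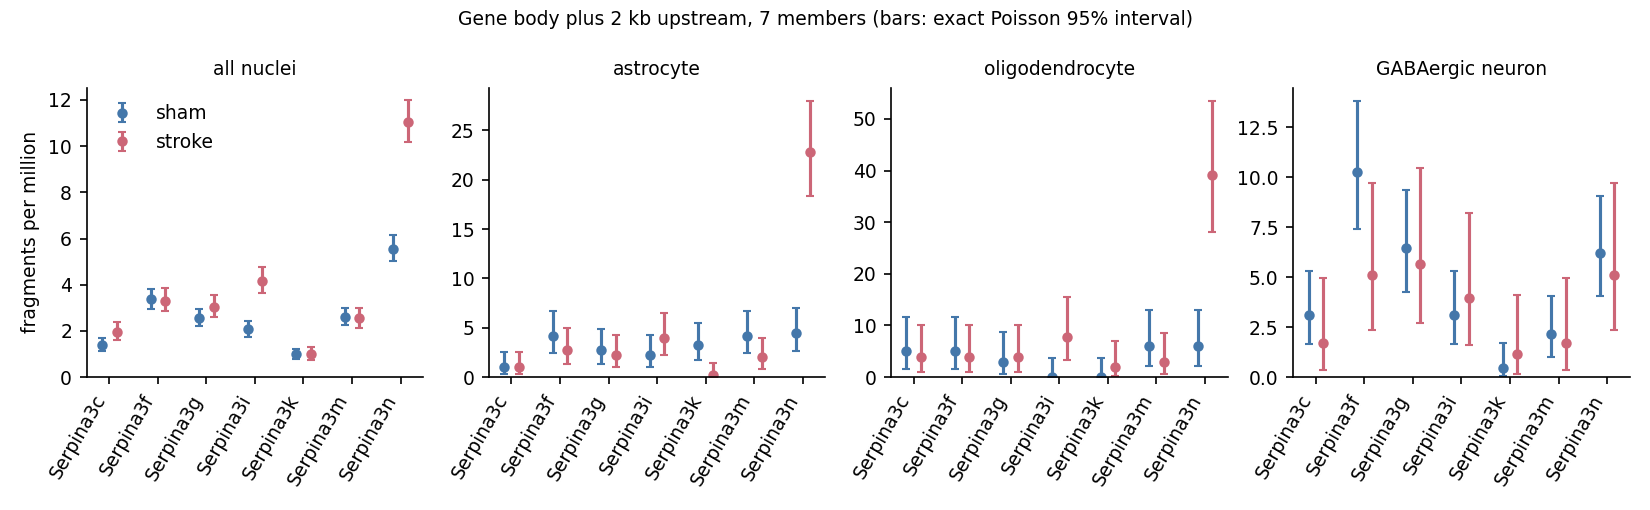
Level in CPM over the gene and 2 kb upstream (y axis, separate scale in each panel) for the 7 members (x axis) in all nuclei and in 3 gates, sham in blue and stroke in red, with exact Poisson 95% intervals. Serpina3n in stroke stood at 22.8 in astrocyte- and 39.2 in oligodendrocyte-gated nuclei, and Serpina3f in sham at 10.3 in GABAergic neuron-gated nuclei.

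**Figure D5:**
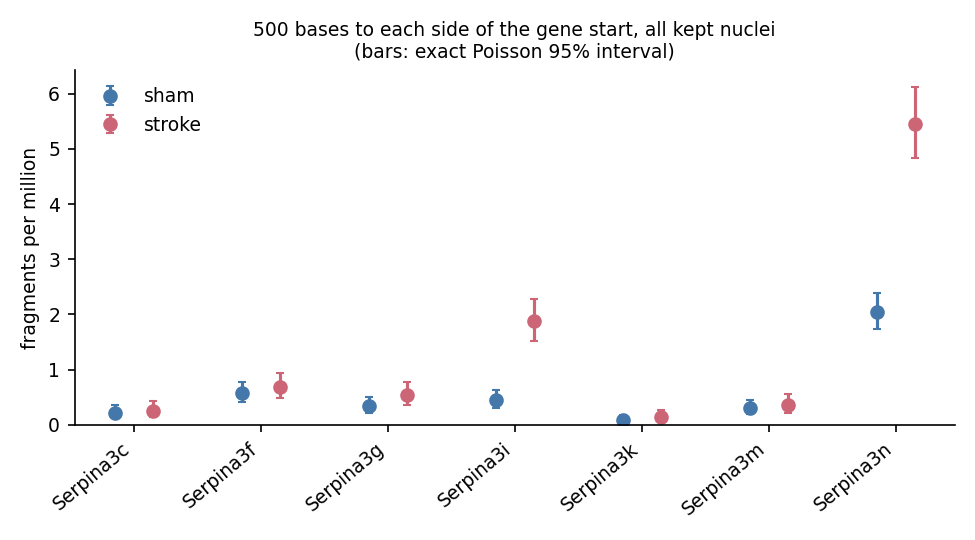
Level in CPM within 500 bases of each gene start (y axis) over all kept nuclei for the 7 members (x axis), sham in blue and stroke in red, with exact Poisson 95% intervals. Serpina3n stood at 2.04 in sham and 5.46 in stroke and Serpina3i at 0.45 and 1.88, while the intervals of the other 5 overlapped.

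Neighbouring and related genes were read in the astrocyte gate, where the median log2 ratio of all genes was -0.05. Of 17 other serpins of chromosome 12, 9 had enough fragments, 3 were at least 2-fold higher in stroke and 1 lower, beside 2.94% and 2.1% of all genes, with a median log2 ratio of -0.17. Among the 3 higher was Serpina3h, a transcribed pseudogene, with 11 and 23 fragments (2.12, 0.99 to 4.81), while the shares of all genes count protein-coding genes only. The second assignment gave 0 of 8 higher and 1 lower, beside 2.47% and 1.15%. Serpina3j had 5 and 15 fragments (ratio 3.04, 1.05 to 10.7) and Serpina6, the gene of the corticosteroid-binding globulin, 10 and 22 (2.23), whereas Serpina11 had 41 and 17 (0.42, 0.22 to 0.76) and Serpina9 39 and 21 (0.55). Of 13 serpins on other chromosomes 1 was 2-fold higher, Serpinc1 (antithrombin) with 15 and 31 fragments (2.09), and Serpinh1, a collagen chaperone, followed with 66 and 110 (1.69). The lowest of them were Serpind1 at 0.68 and Serpinf2 at 0.74. Among 7 protease genes, those of serine proteases and Mmp9, the gene of a metalloproteinase, 4 had enough fragments. Klkb1, plasma prekallikrein, had 10 and 47 (4.76, 2.38 to 10.6) and Prtn3 a ratio of 1.09, while Elane, neutrophil elastase, had 20 and 12 (0.61) and Mmp9 a ratio of 0.75.

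Genes of the signalling known to induce Serpina3n were read in the same way. Of 16 acute phase signalling genes, all with enough fragments in the astrocyte gate, 3 were at least 2-fold higher in stroke and 0 lower, beside 2.94% and 2.1% of all genes, and their median log2 ratio was 0.41. Osmr, the oncostatin M receptor, had 57 and 182 fragments (3.24, 2.39 to 4.44) and Tnfrsf1a, a receptor of tumour necrosis factor, 89 and 214 (2.44, 1.89 to 3.16), while Il6st, the shared interleukin-6 family receptor, stood at 0.94 and the glucocorticoid receptor gene Nr3c1 at 0.95. In the oligodendrocyte gate 15 of the 16 had enough fragments and 3 were at least 2-fold higher and 0 lower, beside 3.68% and 6.19% of genes. These were Tnfrsf1a with 8 and 27 fragments (3.31), Socs3, a feedback inhibitor of STAT3 signalling, with 17 and 51 (2.94, 1.67 to 5.43) and Cebpd, an acute phase transcription factor gene, with 7 and 20 (2.80). These 3 were named after their values were seen, and Osmr there had 23 and 18 fragments (0.77, 0.39 to 1.49). By the second assignment 2 of 16 were at least 2-fold higher in astrocyte nuclei and 0 lower, beside 2.47% and 1.15% of genes. Their median log2 ratio was 0.29. In oligodendrocyte nuclei of that assignment 4 of 15 were higher and 0 lower, beside 3.54% and 3.86%. The median log2 ratio there was 0.04, against 0.25 in the oligodendrocyte gate.

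Of 12 reactive astrocyte genes, 8 were at least 2-fold higher in stroke in the astrocyte gate, beside 2.94% of all genes, with a median log2 ratio of 1.29. The list was chosen with earlier results of these data known, and Osmr counts both here and among the acute phase genes. Hspb1, a small heat shock protein gene, had 7 and 40 fragments (5.79, 2.57 to 15.3) and Vim, vimentin, 45 and 198 (4.46, 3.21 to 6.31), and the lowest were S1pr3 at 1.18 and Aspg at 1.56. In the oligodendrocyte gate 7 of the 12 had enough fragments and 0 were 2-fold higher and 1, Gfap, was lower with 14 and 7 fragments (0.49, 0.17 to 1.30), beside 6.19% of genes. The highest there were Cd44, a hyaluronan receptor gene, with 25 and 50 (1.96, 1.19 to 3.31), and Cp, ceruloplasmin, with 7 and 13 (1.82, 0.68 to 5.39). These 3 were named after their values were seen. Of 8 macrophage genes in the astrocyte gate, 4 had enough fragments and 0 passed 2-fold, with Mrc1 highest at 1.47, Plac8 at 1.32, F13a1 at 1.05 and Cd163 lowest at 0.75. Of 7 granulocyte genes 2 had enough, and Csf3r stood at 0.41 and Mmp9, also listed with the proteases, at 0.75. In the oligodendrocyte gate 2 of the 8 macrophage genes had enough fragments. F13a1, with 28 and 72 (2.52, 1.61 to 4.05), was at least 2-fold higher, beside 3.68% of genes. Mrc1 stood there at 1.59 (0.61 to 4.43), and 0 were 2-fold lower.

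Genes whose levels followed Serpina3n most closely were sought over 10 profiles, each a class in 1 library with at least 100 nuclei, by Pearson's r of log2 CPM plus 1 among 17508 genes. Genes needed at least 50 fragments over the profiles. The closest were Gjd4 (0.96, from 66 fragments), Rnf212 (0.93), Otud7b (0.92), Ptbp2 (0.91) and Tmem241 (0.90). With the second assignment and 12 profiles, 1 of these 5, Gjd4, was again among the closest 5. Among the members r was 0.60 for Serpina3i and 0.52 for Serpina3c, and between -0.12 and -0.24 for the other 4. Serpina3c and Serpina3k, with 41 and 38 fragments, lay below the minimum of 50. With the second assignment r was 0.78 for Serpina3c, 0.22 for Serpina3i, 0.21 for Serpina3m and 0.13 for Serpina3k, so the last 2 turned sign, and -0.14 for Serpina3f and -0.27 for Serpina3g. The profiles share libraries and differ in depth, and the correlations are descriptions.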

How the data were processed

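Per the labels and the submitters' processing notes, the authors processed both libraries with Cell Ranger ATAC 2.1.0 on mm10 and deposited fragment files, with 1 count of supporting reads per fragment, and per-barcode counts; no normalized value was used. From the deposited counts, called barcodes with more than 20% of fragments in peaks were kept. Fragments overlapping each RefSeq gene (GRCm38.p6) plus 2 kb upstream were counted and divided by all fragments of the same nuclei. Kept sham and stroke nuclei held 73477848 and 52794287 fragments, and the fragments of a class limit its precision. Classes came from 153 matched markers of 154 listed. A nucleus needed a Poisson score of at least 8, a margin of 5 over the next class, at least 6 fragments and a 2-fold excess. Code for fragment overlaps, ratio intervals and word counts was tested on simulated data, and the class assignment was not. GENCODE vM21 was not the main annotation because its Serpina3m model spans Serpina3k. Intervals were exact Poisson for levels, exact binomial (Clopper-Pearson) for shares and exact conditional binomial for ratios, at 95%. Genes with fewer than 20 fragments over both libraries entered no count. The members and all lists were chosen with earlier results of these data known, and motifs, distal sites, upstream windows and the second assignment after the data were seen. Named from a list were the highest and lowest 2 ratios in the astrocyte gate, plus the 5 genes most like Serpina3n. Distances are from the RefSeq transcript start, windows around starts from the gene model. Cut sites, promoter-only counting, other filters, gates, scaling and thinning were tried as alternatives. Analysis used Python 3.11.15, numpy 2.4.6, scipy 1.17.1, numba 0.67.0 and Biopython 1.88.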

Additional observations from a re-analysis of the deposited data

How the results depend on the processing

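The Serpina3n ratio in astrocyte-gated nuclei stayed between 4.14 and 5.63 and that in oligodendrocyte-gated nuclei between 2.77 and 9.61 over 12 alternatives each, all within the interval of the reported value. Oligodendrocyte-gated nuclei had the highest Serpina3n level in stroke in all 12 alternatives, but by 24 against 23.4 CPM in astrocyte-gated nuclei after thinning. There 8 of 75 oligodendrocyte-gated nuclei held a fragment, and the intervals of the oligodendrocyte and astrocyte shares overlapped, so thinning does not rank these gates. Over all nuclei the ratio was 2.64 when counted from 2 kb upstream to 500 bases downstream of the start and 1.46 without the filter on the share in peaks, which adds the 3686 stroke barcodes; the other 10 alternatives stayed within its interval. At a fold of 1.5 the count of higher members in the astrocyte gate was 2 instead of 1. With 1000-base bins 10 of 12 bins were higher, and with 50-base words 93.1% of Serpina3n was unique. GENCODE models, the looser gate, the assignment from all genes, the oligodendrocyte ratio and the 50-base words were chosen after seeing the data. The Serpina3m ratio in astrocyte-gated nuclei reversed from 0.48 to 1.22 with the classes from all genes, and the Serpina3n ratio in glutamatergic nuclei, 0.90 with an interval that held 1, was then 2.14; the cause was not tested. Of the values of single members in single classes under these alternatives, 602 stayed within the interval of the reported value, 46 did not and 1 reversed, the count of reversals being limited to reported ratios that passed 2-fold or whose interval left out 1. Counting every ratio, 88 of the 649 values lay on the other side of 1 from the reported one, most of them still within the interval of the reported value, and 14 of these came with the classes from all genes. No paired analysis was possible because there was 1 library per condition. Fragments of 1 nucleus are not independent, so intervals are too narrow where few nuclei carry the count.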
